A study of Mus musculus with 90 samples.

Results

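The 4 Hox clusters of the mouse were described through the ChIP-seq peaks that fall in 1 window around each cluster. In mm9 coordinates the windows were chr6:52080000-52230000 for HoxA, chr11:96040000-96250000 for HoxB, chr15:102730000-102890000 for HoxC and chr2:74500000-74620000 for HoxD, which together span 640.0 kb and hold 38 listed Hox genes. A peak was a member when it overlapped a window, whatever its height, and 415 of the 141580 peaks in 5 peak lists did so. These were 59 of 25754 peaks of H3K4me3 replicate 1, 40 of 19912 of H3K4me3 replicate 3, 77 of 25982 of Mll2 serum 9172, 94 of 26388 of Mll2 serum 9175 and 145 of 43544 of Menin.

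The study addressed which H3K4 methylation in mouse embryonic stem cells depends on Mll2, and its 90 samples cover ChIP-seq, 4C-seq and RNA-seq. All 5 libraries used here were from wild-type V6.5 embryonic stem cells, a line grown in serum with LIF. The 2 H3K4me3 libraries (homemade antibody 28) came from cells that carried the shGFP control hairpin delivered by lentivirus. The 2 Mll2 libraries (homemade sera 9172 and 9175) and the Menin library have no hairpin in their labels, so overlaps of Mll2 or Menin with H3K4me3 join different cell preparations. Nothing in the labels says that the H3K4me3 libraries were separate cultures, there was 1 Menin library, and the knockdown, mutant, RNA-seq and 4C-seq samples were not analysed here.

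Hox genes encode homeodomain transcription factors that give cells their position along the body axis, and the order of the genes along the chromosome follows the order in which they are used from head to tail. In embryonic stem cells most of them are silent, and their promoters are known as bivalent, which means that H3K4me3 sits there beside the Polycomb mark H3K27me3. Mll2, also called Kmt2b, is an H3K4 methyltransferase that carries a CXXC domain for unmethylated CpG, and Menin, the product of Men1, is a subunit that the Mll1 and Mll2 complexes share.

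Because the CXXC domain reads CpG, the CG content of Hox promoters is shown first. RefSeq promoter sequences (300 bases, from 250 before to 50 after a start, GRCm38.p6) matched 22 of the 38 genes, with 24 promoters. They held a median of 14.5 CG (range 4 to 45) beside 7 over all 32851 promoters in the table, and 70.8% of them held at least 10 CG beside 43.5% of all. CG reads the same on both strands, and 94.6% of all promoters held at least 1. The 5 shown here are printed as the 250 bases upstream of the start, 5′ to 3′ on the gene's strand, with each CG in capitals: the promoter with most CG in each cluster, then the member promoter with fewest, the alphabetically first of those at 4. In GRCm38.p6, which is not the build of the peak files, they lie at chr6:52260881-52261130 (minus strand) for Hoxa13, chr11:96318017-96318266 (plus strand) for Hoxb4, chr15:103034145-103034394 (plus strand) for Hoxc4, chr2:74667975-74668224 (plus strand) for Hoxd13 and chr6:52227371-52227620 (minus strand) for Hoxa9.
Hoxa13: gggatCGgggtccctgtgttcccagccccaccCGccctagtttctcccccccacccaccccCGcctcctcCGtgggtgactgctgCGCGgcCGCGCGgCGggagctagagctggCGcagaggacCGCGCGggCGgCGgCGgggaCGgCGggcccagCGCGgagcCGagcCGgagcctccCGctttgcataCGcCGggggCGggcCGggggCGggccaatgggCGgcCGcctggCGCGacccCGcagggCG
Hoxb4: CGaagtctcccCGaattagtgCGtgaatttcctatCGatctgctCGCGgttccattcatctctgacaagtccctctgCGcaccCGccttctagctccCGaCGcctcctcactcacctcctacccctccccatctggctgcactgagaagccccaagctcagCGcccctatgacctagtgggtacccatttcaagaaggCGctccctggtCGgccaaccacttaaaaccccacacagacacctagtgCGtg
Hoxc4: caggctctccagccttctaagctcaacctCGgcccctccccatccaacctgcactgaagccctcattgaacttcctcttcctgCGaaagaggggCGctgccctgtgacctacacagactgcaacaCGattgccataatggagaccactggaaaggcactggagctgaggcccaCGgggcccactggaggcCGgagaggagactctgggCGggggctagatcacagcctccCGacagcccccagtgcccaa
Hoxd13: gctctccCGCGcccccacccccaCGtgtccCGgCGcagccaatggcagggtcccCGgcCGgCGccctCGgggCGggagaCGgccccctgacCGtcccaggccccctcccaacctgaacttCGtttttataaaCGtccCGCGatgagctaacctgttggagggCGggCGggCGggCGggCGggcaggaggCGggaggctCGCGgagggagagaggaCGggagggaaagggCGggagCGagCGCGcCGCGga
Hoxa9: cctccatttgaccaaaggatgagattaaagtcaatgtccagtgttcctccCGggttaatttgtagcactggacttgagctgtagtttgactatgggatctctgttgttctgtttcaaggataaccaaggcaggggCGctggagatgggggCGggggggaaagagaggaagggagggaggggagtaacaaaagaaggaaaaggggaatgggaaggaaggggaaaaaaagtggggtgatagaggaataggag
Hoxa13 and Hoxd13, the highest-numbered genes of their clusters and known for their part in limb and genital tract patterning, had 35 and 31 CG in these 250 bases. Hoxb4, a gene studied in blood stem cells, had 14, Hoxc4 had 8, and Hoxa9, known from leukaemia with MLL fusions, had 3. Of the 24 promoters, 10 were of HoxA, 10 of HoxD and 3 of HoxB, so the median is mostly that of HoxA and HoxD. Hoxc4 was the only HoxC promoter matched, with 9 CG in its 300 bases. No peak was assigned to a gene, because positions of the genes in mm9 were not used here.

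Peaks of all 5 lists were denser in the Hox windows than elsewhere, and Menin covered far more of them than H3K4me3 or Mll2 did. Menin peaks covered 45.1% of the HoxA window, 34.6% of HoxB, 39.0% of HoxC and 39.1% of HoxD, beside 1.77% of the rest of the genome. H3K4me3 peaks covered 11.5%, 7.67%, 11.4% and 12.3% of the 4 windows in replicate 1 and 8.80%, 4.38%, 7.59% and 9.39% in replicate 3, beside 1.66% and 1.21% of the rest. In both H3K4me3 libraries HoxB was lowest and HoxD highest.

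Mll2 serum 9172 covered 8.97% of HoxA, 8.58% of HoxB, 9.23% of HoxC and 10.3% of HoxD, beside 0.952% of the rest of the genome. Serum 9175 covered 12.6%, 14.5%, 13.7% and 17.8% in the same order, beside 1.11%. HoxD was highest with both sera, while HoxB was lowest with serum 9172 and second only to HoxD with serum 9175. The labels give 1 library per serum and 1 for Menin, so differences between clusters in those lists have no replicate check.

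**Figure D1:**
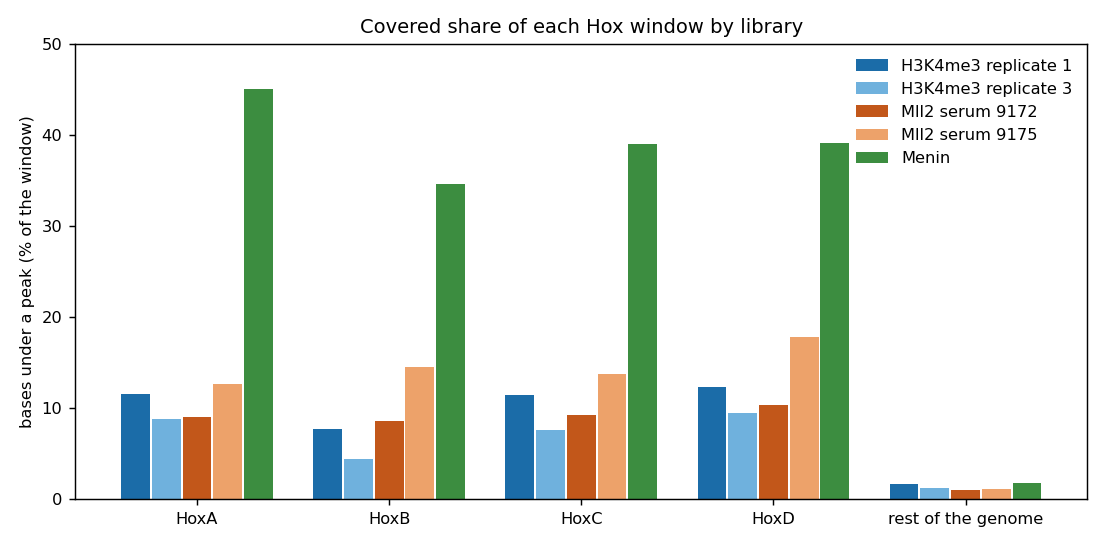
Share of bases under a peak (%, y axis) in each Hox window and in the rest of the genome (x axis), 1 bar per library. Menin bars stand between 34.6% and 45.1% in the 4 windows, and no other library passes 17.8%.

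Counted as peaks, the Menin list held 34 in HoxA, 45 in HoxB, 38 in HoxC and 28 in HoxD, or 21.4 to 23.7 per 100 kb in each window beside 1.65 per 100 kb elsewhere. Merged regions with a peak of both H3K4me3 libraries, called H3K4me3 regions from here on, numbered 9, 7, 10 and 10, or 36 of 18894. Mll2 regions, formed likewise from peaks of the 2 sera, numbered 13, 19, 15 and 14, or 61 of 20082. HoxB, the longest window, had the fewest H3K4me3 regions and the most Mll2 regions of the 4 clusters. Per 100 kb, Mll2 regions numbered 8.67 in HoxA, 9.05 in HoxB, 9.37 in HoxC and 11.7 in HoxD. H3K4me3 regions numbered 6.00, 3.33, 6.25 and 8.33 per 100 kb in the same order. By density HoxB was thus lowest for H3K4me3 regions, and HoxD was highest for both.

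**Figure D2:**
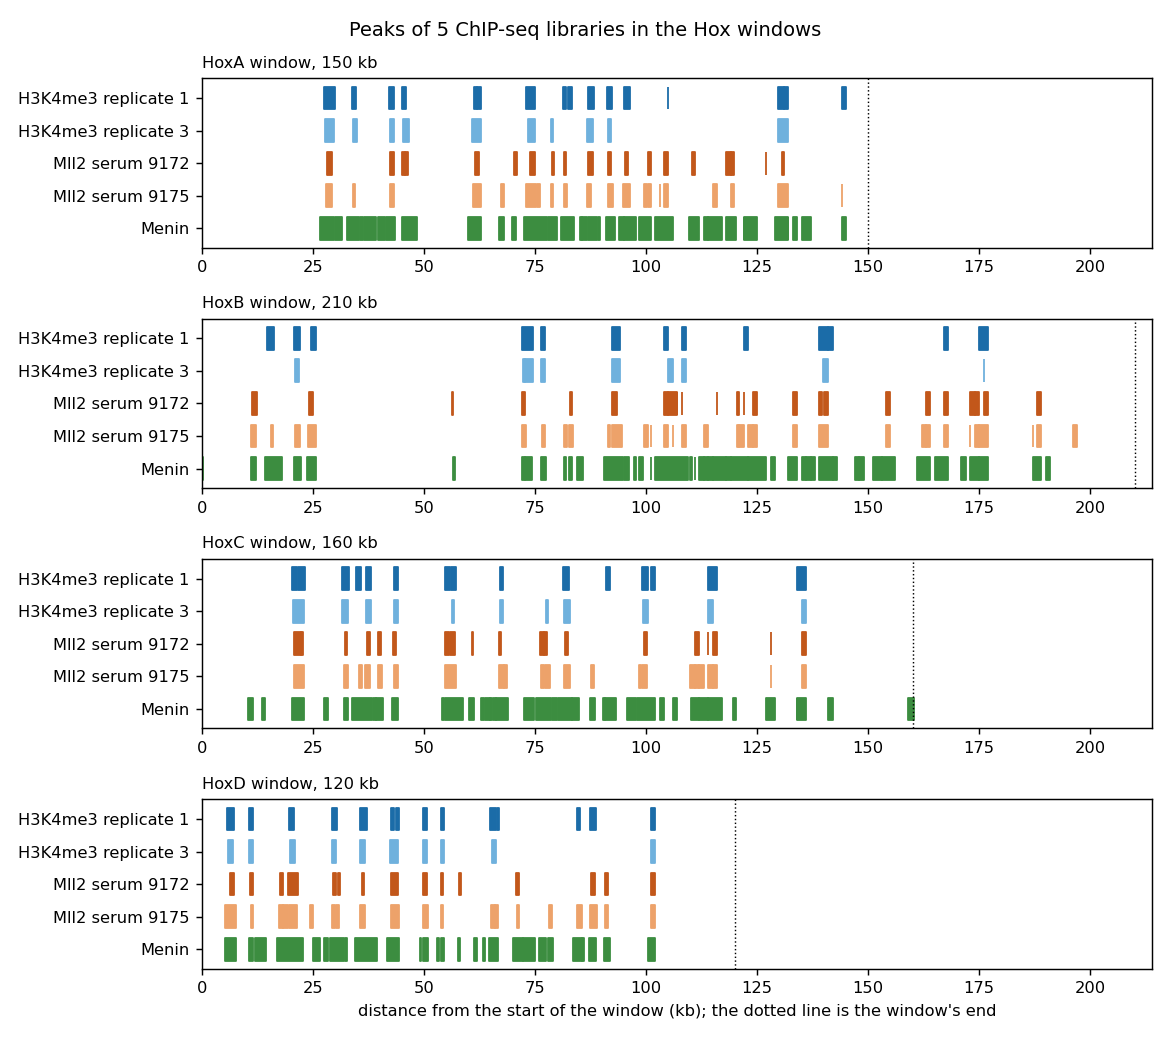
Peaks of each library (rows) along each Hox window, with the distance from the window's start in kb on the x axis and 1 block per peak. Menin blocks are the most numerous and longest in each window, while the other lists appear as short separate blocks, and in HoxB no H3K4me3 peak lies between 25.6 and 72.1 kb.

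The Hox H3K4me3 and Mll2 peaks were narrow and low against the rest of their lists, while the Hox Menin peaks were wide and high. Fold enrichment is the authors' ratio of tags to the background that the peak caller estimated, and it was compared only within a list. Its median in the Hox windows and in all other peaks was 10.9 and 23.3 in H3K4me3 replicate 1, and 10.7 and 31.1 in replicate 3. For Mll2 it was 8.95 and 11.2 with serum 9172, and 8.97 and 12.2 with serum 9175. For Menin the order turned, with 15.1 in the Hox windows and 9.19 elsewhere.

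Deposited tag counts divided by peak width gave the same order. Medians in the Hox windows and elsewhere were 63.4 and 126 tags per kb in H3K4me3 replicate 1, 43.5 and 109.9 in replicate 3, 44.8 and 55.5 with serum 9172, 34.3 and 42.6 with serum 9175, and 58.3 and 38.4 for Menin. The libraries differ in depth, so these counts are not comparable between them. Hox peaks had a median width of 1052 bp beside 1495 bp in H3K4me3 replicate 1, of 1024 beside 1472 bp in replicate 3, of 680.0 beside 847 bp with serum 9172, of 840.5 beside 993 bp with serum 9175, and of 1343 beside 801 bp for Menin. The 4 clusters ranged from 919 to 1166 bp in H3K4me3 replicate 1 and from 1125 bp in HoxB to 1910.0 bp in HoxA for Menin.

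**Figure D3:**
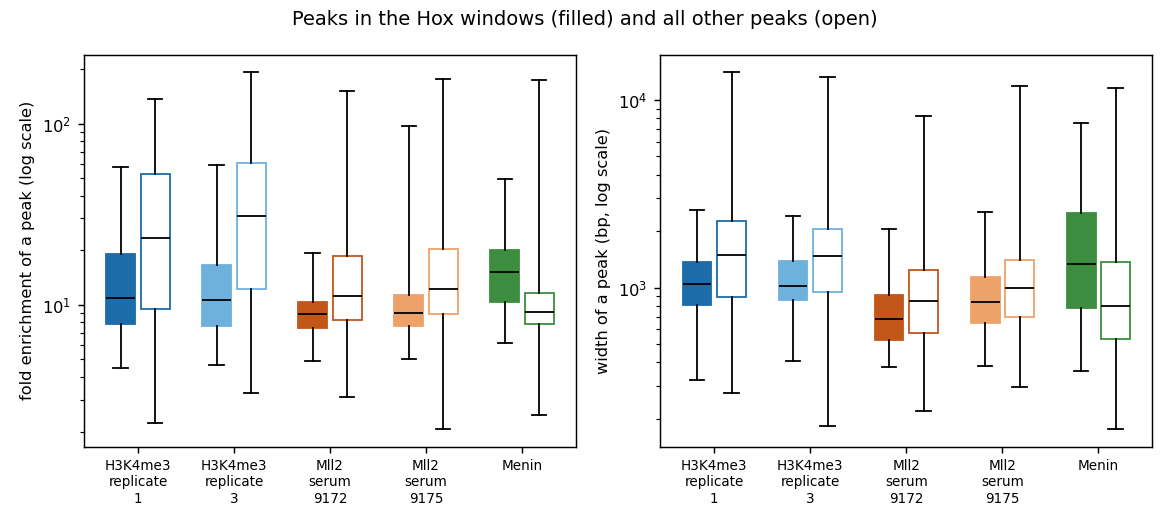
Fold enrichment (left) and width in bp (right) of peaks on log axes for each library, with filled boxes for the Hox windows and open boxes for all other peaks; boxes span the quartiles, lines are medians and whiskers reach the lowest and highest peak. The Hox medians lie under the others for H3K4me3 and Mll2 (10.9 beside 23.3 fold in H3K4me3 replicate 1) and over them for Menin (15.1 beside 9.19 fold).

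The tails of the lists differed in the same way. Of the Hox Menin peaks 37 of 145 (25.5%) reached a fold of 20, beside 4.03% of the other Menin peaks, and 21 (14.5%) were at least 3000 bp wide, beside 3.07%. No Hox peak of either H3K4me3 library was that wide, beside 10.3% of the other peaks in replicate 1 and 6.14% in replicate 3. No Hox peak of serum 9172 reached a fold of 20, beside 21.5% of the others, and 3 of 94 did with serum 9175, beside 26.0%. The top 5% of the Menin list by fold held 41 Hox peaks and its top 1% held 12, although the Hox windows hold 0.333% of that list. The top 10% of neither H3K4me3 list, by fold, width or tags, held a Hox peak.

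The widest H3K4me3 region of each cluster shows the range, with the highest fold given where a library had several peaks on a region. In HoxA it was chr6:52107429-52110007, 2579 bp wide, with folds of 57.7 and 59.4 in H3K4me3 replicates 1 and 3, and 17.2 and 22.8 with Mll2 sera 9172 and 9175. The Menin peak over most of it, chr6:52106612-52109820, had 189 tags and a fold of 14.3, and a second one that reached its edge had a fold of 19.9. The region was also the strongest Hox H3K4me3 region in both libraries, and it stood at the low-coordinate edge of the HoxA peaks, 27.4 kb into the window. In HoxB it was chr11:96112053-96114475, 2423 bp, with H3K4me3 folds of 21.7 and 24.1, Mll2 folds of 12.7 and 8.97 and a Menin fold of 16.0. In HoxD it was chr2:74542418-74544374, 1957 bp, with H3K4me3 folds of 14.6 and 13.9, Mll2 folds of 15.7 and 15.5 and a Menin fold of 20.1.

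The widest HoxC region, chr15:102750262-102753088, was 2827 bp wide and had H3K4me3 folds of 52.7 and 39.0. The sera placed its Mll2 peaks differently in their lists. Serum 9175 had 249 tags in a peak at chr15:102750577-102752850, with a fold of 97.0 that ranked 23 in its whole list, while serum 9172 reached a fold of 14.9 with 89 tags in its stronger peak, which ranked 8748. The Menin fold there was 17.0. Without a repeat of either serum the difference has no replicate check, and the next highest Hox fold of serum 9175 was 24.4, in HoxA. The HoxD region with the highest replicate 3 fold was another one, chr2:74505708-74507226, with folds of 10.3 and 19.5 in the 2 H3K4me3 libraries.

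The strongest Hox Menin peak was in HoxD, at chr2:74516879-74522683, 5805 bp wide with 740 tags and a fold of 49.6, which ranked 93 in the list. In HoxB the strongest was narrow, chr11:96215342-96216726, 1385 bp with 176 tags and a fold of 46.0, and the strongest peaks of both Mll2 sera in that cluster lay at the same place, with folds of 17.9 (serum 9172) and 18.2 (serum 9175). The H3K4me3 folds at that HoxB site were 10.1 and 8.69, both below the median of their lists outside the Hox windows. The strongest Menin peak of HoxA was chr6:52124877-52128255, with 281 tags and a fold of 34.0, and that of HoxC was chr15:102810144-102813159, with 241 tags and a fold of 30.8. The widest Hox Menin peak was chr11:96141988-96149543 in HoxB, 7556 bp with 603 tags, which ranked 27 by width. Under that Menin peak lay 3 Mll2 regions.

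The strongest serum 9172 peaks of the other clusters lay at chr6:52108073-52109326 in HoxA with a fold of 17.2, chr15:102796867-102797390 in HoxC with 17.9 and chr2:74600633-74601880 in HoxD with 19.4. That of serum 9175 in HoxA lay at chr6:52153040-52155081 with a fold of 24.4. In HoxD 2 peaks of serum 9175 shared the highest fold, 18.8, at chr2:74519459-74521448 and chr2:74600532-74602097. The second of these overlapped the strongest serum 9172 peak, so in HoxB and HoxD a strongest peak of each serum lay at 1 place, and in HoxA and HoxC they lay apart.

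The overlaps ask where methyltransferase, cofactor and mark were called at the same place. An Mll2 region overlapped 31 of the 36 Hox H3K4me3 regions (86.1%, Clopper-Pearson 95% interval 70.5% to 95.3%), beside 80.8% of all H3K4me3 regions, a share within the Hox interval. Among peaks with a fold of at least 10 it was 11 of 20 (55.0%, interval 31.5% to 76.9%), beside 72.6% of all, and among peaks with a score of at least 100 it was 18 of 26 (69.2%, interval 48.2% to 85.7%), beside 80.2%. The order of the Hox share and the background thus turned with either threshold, and each background lay within the Hox interval. By cluster, with no threshold, these were 7 of 9 in HoxA, 5 of 7 in HoxB, 10 of 10 in HoxC and 9 of 10 in HoxD. A peak of at least 1 serum lay on 36 of 36, beside 89.6% of all. A Menin peak lay on 36 of 36, beside 88.8% of all, and with 36 regions the interval still reaches down to 90.3%. Menin covered 39.0% of the Hox windows together and 1.77% of the rest of the genome. The part of that wide cover in the Menin overlaps was not tested. Both partners were found on the same 31 regions that had an Mll2 region, or 86.1%, beside 78.7% of all.

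The 5 Hox H3K4me3 regions without an Mll2 region each had a peak of 1 serum. In HoxA, chr6:52113752-52114911 had serum 9175 alone at a fold of 7.34, and chr6:52125105-52126519 had serum 9172 alone at 8.95. In HoxB, chr11:96060725-96061999 and chr11:96116287-96117225 had serum 9175 alone, both at 8.15. In HoxD, chr2:74564947-74566165 had serum 9175 alone at 10.6. Their replicate 3 H3K4me3 folds were 4.64 to 13.0, and their Menin folds were 8.94 to 34.0, the highest of them at the second HoxA region.

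Read from Mll2, the overlap was lower. Of the 61 Hox Mll2 regions 32 (52.5%, interval 39.3% to 65.4%) overlapped an H3K4me3 region, beside 79.0% of all Mll2 regions. HoxB had 5 of 19, HoxA 7 of 13, HoxC 10 of 15 and HoxD 10 of 14. An H3K4me3 peak of at least 1 library lay on 43 of 61 (70.5%, interval 57.4% to 81.5%), beside 85.1% of all. A Menin peak lay on 61 of 61 (lower bound 94.1%), beside 89.1% of all. Here too the part of Menin's wide cover of the Hox windows was not tested.

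The 29 Hox Mll2 regions without an H3K4me3 region were 6 in HoxA, 14 in HoxB, 5 in HoxC and 4 in HoxD. Of them 8 held an H3K4me3 peak of replicate 1 alone, 3 held one of replicate 3 alone, and 18 held none. Their folds ran from 4.90 to 14.9 with serum 9172 and from 5.06 to 13.9 with serum 9175. The median Mll2 folds of the 18 without any H3K4me3 peak were 8.21 and 9.36 (serum 9172 first), beside 8.26 and 9.10 at the 2972 such regions elsewhere, which is a small difference beside that range of folds. A Menin peak lay on 18 of the 18 (lower bound of the interval 81.5%), with a median Menin fold of 22.4, beside 51.5% of all such regions. The 1523 of 2972 elsewhere that had one had a median Menin fold of 8.67. The part of Menin's wide cover of the Hox windows in the 18 of 18 was not tested. Examples are chr11:96164238-96165468 in HoxB, with Mll2 folds of 14.9 and 12.2 and a Menin fold of 21.5, and chr15:102841138-102842149 in HoxC, with 7.46, 10.6 and 30.1. A Menin fold is that of the whole peak, and some Menin peaks on the 18 regions also covered H3K4me3 nearby. The HoxD peak with a Menin fold of 49.6, for 1, also lay on the H3K4me3 region chr2:74519617-74520948.

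Levels at H3K4me3 regions with an Mll2 region kept the same contrast. All 31 of them in the Hox windows had a Menin peak, and 14846 of the 15239 others did. At Hox H3K4me3 regions with an Mll2 region the median H3K4me3 folds were 16.4 and 13.2 (replicate 1 first), beside 47.4 and 44.6 at the 15239 others. The median Mll2 folds there were 11.2 and 12.2, beside 16.4 and 18.8. The median Menin fold was 20.2, beside 12.1 at the others that had a Menin peak. With or without Mll2, H3K4me3 regions in the Hox windows had a median width of 1380.5 bp beside 1913 bp. Those with an Mll2 region had 1480.0 bp beside 2103 bp. All Mll2 regions had a median width of 1125 bp in the Hox windows beside 1233 bp. Hox H3K4me3 regions are thus compared with a class whose median fold is higher, and no adjustment for that was made.

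Menin extended well beyond both. Of the bases of Hox H3K4me3 regions 96.6% lay under a Menin peak, beside 67.9% elsewhere, and of the bases of Hox Mll2 regions 98.1%, beside 84.1%. Of the 249.7 kb under Menin in the Hox windows 27.7% lay under an H3K4me3 peak of either library, beside 61.4% elsewhere. The share under an Mll2 peak of either serum was 39.6%, beside 54.2%, and the share under any of the 4 lists was 45.2%, beside 67.5%. HoxB had the lowest share of Menin bases under H3K4me3, 22.5%, and HoxD the highest, 32.4%.

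By peak, 49 of the 145 Hox Menin peaks (33.8%, interval 26.2% to 42.1%) overlapped H3K4me3 and Mll2 peaks, beside 43.3% of the whole list. Mll2 without H3K4me3 was found at 32 (22.1%, interval 15.6% to 29.7%), beside 8.66%. H3K4me3 without Mll2 was found at 2 (1.38%, interval 0.167% to 4.89%), beside 7.59%, 1 in HoxA and 1 in HoxC. Neither was found at 62 (42.8%, interval 34.6% to 51.2%), beside 40.4%, a share near the background. HoxB had the highest share with Mll2 alone, 14 of 45 or 31.1%, with an interval of 18.2% to 46.6%. The shares were 20.6% in HoxA, 15.8% in HoxC and 17.9% in HoxD, and their intervals overlap that of HoxB. Hox Menin peaks were wider than the others, and H3K4me3 and Mll2 peaks were denser in the Hox windows. The part of width and density in these class shares was not tested.

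The Hox Menin peaks were wider and stronger, by their medians, than the other Menin peaks of the same class in the 3 larger classes. Peaks with both had a median width of 2598 bp and fold of 19.2, beside 1400.0 bp and 11.3 elsewhere. Peaks with Mll2 alone had 1648 bp and 15.5, beside 748 bp and 8.62. Peaks with neither had 786 bp and 10.9, beside 534 bp and 8.56. Within the Hox windows the peaks with neither were the narrowest and lowest of these 3 classes.

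**Figure D4:**
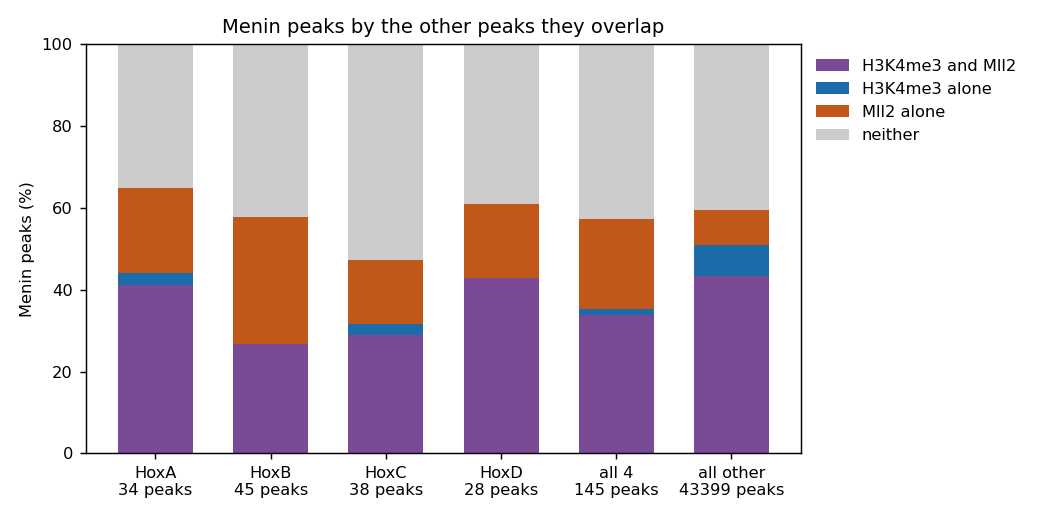
Share of Menin peaks (%, y axis) that overlap H3K4me3 and Mll2 peaks, H3K4me3 alone, Mll2 alone or neither, for each Hox window, the 4 windows together and all other Menin peaks (x axis, with the number of peaks). Mll2 alone takes 22.1% of the Hox peaks and 8.61% of the others, and H3K4me3 alone takes 1.38% and 7.62%.

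Position within the clusters was read in 10-kb bins. In HoxA the first 26.6 kb of the window held no Menin peak, and the first H3K4me3 peak began at 27.4 kb. Menin covered at least 25% of 11 of the 15 HoxA bins and at least 50% of 7, with its highest share, 80.4%, between 30 and 40 kb. In that bin the H3K4me3 regions covered 11.7%, and there was no Mll2 region. H3K4me3 regions reached 25% in 2 HoxA bins and were missing from 6.

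In HoxB Menin reached 25% in 12 of 21 bins and peaked at 86.3% between 100 and 110 kb. H3K4me3 regions were missing from 14 of the 21 bins, of which 10 held a Menin peak, and peaked at 33.6% between 70 and 80 kb. The longest stretch without an H3K4me3 region ran from 22 to 72.1 kb, and the longest without a Menin peak from 25.7 to 56.6 kb, within it. In HoxC Menin reached 25% in 10 of 16 bins and in HoxD in 9 of 12, with highest bins of 71.5% and 76.0%. In HoxC 5 bins held Menin and no H3K4me3 region, in HoxA 4 and in HoxD 3.

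Split at the midpoint of each window, the sides differed, and the direction was not the same in all clusters. By the gene order of GRCm38.p6 the HoxA genes run from Hoxa2 to Hoxa13 with rising position, and the other clusters run from the genes numbered 13 down to Hoxb1, Hoxc4 and Hoxd1. Menin covered 56.4% of the side toward Hoxa13 and 33.8% of the side toward Hoxa2, and 48.1% of the side toward Hoxd13 beside 30.2% toward Hoxd1. In HoxB the order turned, with 24.0% toward Hoxb13 and 45.3% toward Hoxb1, and in HoxC the sides were 41.2% toward Hoxc13 and 36.7% toward Hoxc4. Outer stretches without a Menin peak lay on the low-numbered side of every cluster: the first 26.6 kb of HoxA, from 191 kb to the end at 210 kb in HoxB, from 142 to 159 kb in HoxC, and from 102 kb to the end at 120 kb in HoxD. Shorter outer stretches lay on the high-numbered side too, such as the first 10.3 kb of HoxC. The shares of the 2 sides therefore move with where the window was set. The longest HoxB stretch without a Menin peak, from 25.7 to 56.6 kb, was not an outer one. It lay on the Hoxb13 side, the side with less Menin.

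H3K4me3 regions had the order of Menin in HoxC and HoxD and the reverse order in HoxA and HoxB. In HoxA they covered 13.6% of the Hoxa2 side and 6.33% of the Hoxa13 side, whereas Mll2 regions covered 8.40% and 12.8%. In HoxB they covered 6.31% toward Hoxb13 and 4.06% toward Hoxb1, whereas Mll2 regions covered 7.68% and 15.4%. In HoxC they covered 10.4% toward Hoxc13 and 8.07% toward Hoxc4, and Mll2 regions 15.1% and 9.74%. In HoxD all 3 were higher toward Hoxd13, H3K4me3 regions with 17.2% beside 4.53% and Mll2 regions with 20.6% beside 7.86%. The HoxA order of H3K4me3 rests on replicate 3, which covered 11.4% and 6.18% (Hoxa2 side first), since replicate 1 covered 11.5% of both sides.

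Menin was lower in the flanks than in the windows, though in several flanks it was above the 1.77% of the rest of the genome. In the 50 kb below and above each window Menin covered 1.01% and 22.4% for HoxA, 15.9% and 2.57% for HoxB, 0% and 9.14% for HoxC, and 12.2% and 3.37% for HoxD. Each flank was lower than its window, and 4 of the 8 flanks were above 9%, 1 for each cluster. H3K4me3 regions covered between 0% and 7.08% of the flanks, the highest of them above HoxA. Mll2 regions covered between 0% and 9.96%, the highest also above HoxA, where it was near the 10.6% inside the window.

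Summits of the marks were near each other but not at 1 point. The median distance from a Hox summit of Mll2 serum 9175 to the nearest Menin summit was 279.5 bp (n = 92 with an overlapping Menin peak), beside 147 bp elsewhere, and from serum 9172 it was 316 bp (n = 76), beside 150.0 bp. Between the sera it was 135 bp in the Hox windows and 74.0 bp elsewhere. The Hox Menin peaks were also wider, and the part of width in these distances was not tested. To H3K4me3 replicate 3 it was 162 bp from serum 9175, beside 146 bp elsewhere, and 166 bp from serum 9172, beside 169 bp.

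To set the windows against places of equal length, the rest of the genome was cut into back-to-back windows as long as each cluster's window. This gives a rank and no p, since the windows were described and not tested. For Menin covered share HoxA ranked 6 among itself and 17571 other windows, HoxB 12 among 12548 others, HoxC 9 among 16471 and HoxD 11 among 21969. For H3K4me3 regions they ranked 348, 923, 382 and 390 in the same order. For Mll2 regions they ranked 80, 27, 30 and 36, which lies between the ranks for the mark and for Menin in each cluster.

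Among windows whose H3K4me3 covered share was within 5 percentage points of the cluster's own, HoxA had the 2nd highest Menin share of itself and 1460 others, HoxB the 2nd of itself and 6413, HoxC the 4th of itself and 1704 and HoxD the 3rd of itself and 1370. The medians of those windows were 8.08%, 1.65%, 6.92% and 9.22%, and their 99th percentiles were 26.6%, 15.5%, 25.9% and 30.3%, all below the Hox values. The like windows did not have equal H3K4me3. Their median H3K4me3 region shares were 6.89%, 1.81%, 6.13% and 8.03%, below the 9.94%, 5.19%, 9.26% and 10.9% of the clusters. The part of that difference in the Menin shares was not tested. HoxB lies at 5.19% H3K4me3, so its class reaches almost to windows without the mark. Serum 9175 covered share ranked 6, 1, 2 and 1 in these classes, and serum 9172 ranked 51, 6, 26 and 29.

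The Hox windows were not the top of the genome. The windows with the highest Menin share at each of the 4 lengths lay on chromosome 8, with 57.5% at chr8:123000001-123150000 at the HoxA length and 61.9% at chr8:73280001-73440000 at the HoxC length. Their H3K4me3 regions covered 12.1% and 27.4%, beside 9.94% in HoxA and 9.26% in HoxC.

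**Figure D5:**
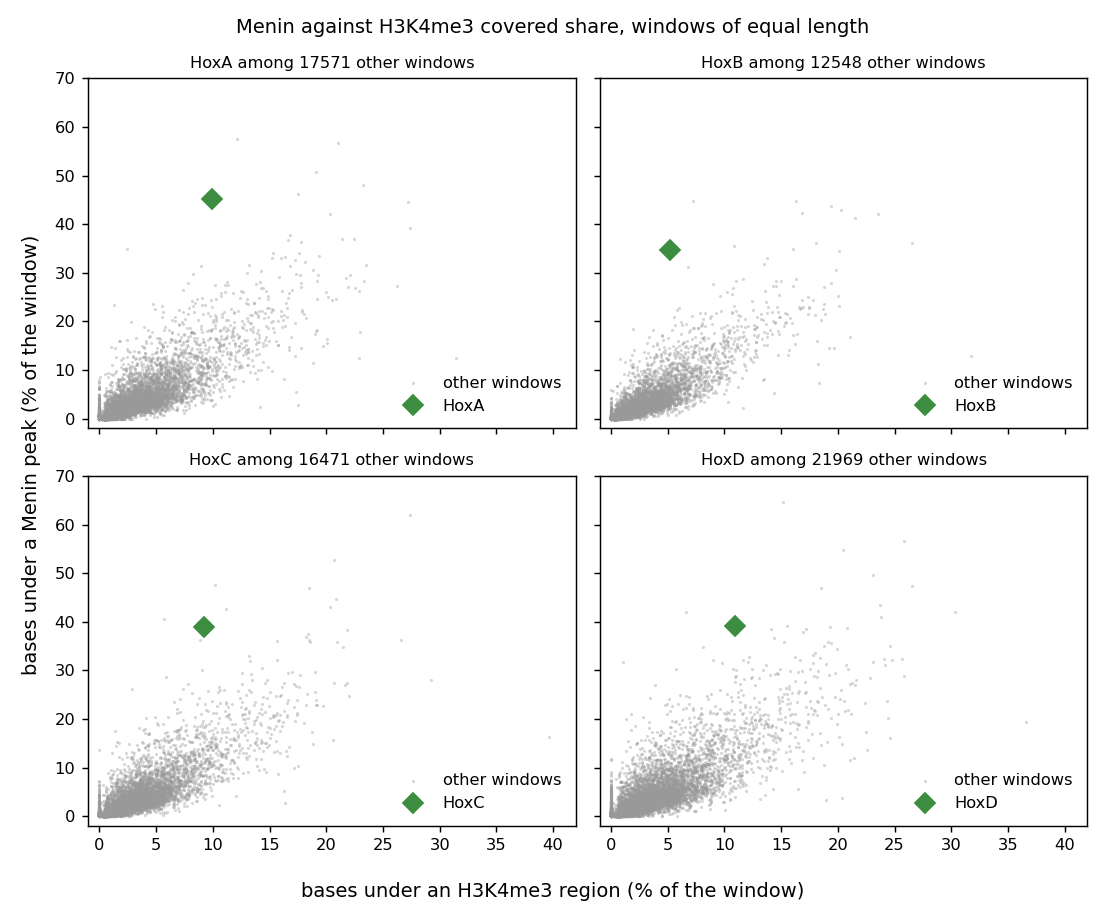
Share of bases under a Menin peak (%, y axis) against the share under an H3K4me3 region (%, x axis), with 1 panel for each window length, grey points for other windows and a green diamond for the Hox window. The HoxA diamond stands at 9.94% H3K4me3 and 45.1% Menin. The windows within 5 percentage points of its H3K4me3 share have medians of 6.89% H3K4me3 and 8.08% Menin.

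The libraries did not agree in every Hox peak. Of the Hox peaks of H3K4me3 replicate 1, 41 of 59 overlapped one of replicate 3 (69.5%), beside 75.2% of the whole list, and of those of replicate 3, 37 of 40 overlapped one of replicate 1 (92.5%), beside 97.9%. Of the Hox peaks of serum 9172, 66 of 77 overlapped one of serum 9175 (85.7%), beside 80.7%, and in reverse 63 of 94 (67.0%), beside 77.4%. Kept tags were 21936546 and 12277583 for H3K4me3 replicates 1 and 3, 19584961 and 13739094 for sera 9172 and 9175, and 11550409 for Menin, so the Menin list had the most peaks at the lowest depth. A site missing from a list was not called at that depth, which does not show that signal is absent, and intervals cover counting error only. Depth, antibody and cell preparation differ between the lists together and cannot be told apart.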

How the data were processed

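ChIP-seq peak lists of 5 libraries were used, with samples grouped by their titles and antibody labels. Per the submitters' processing notes, Bowtie 0.12.9, MACS 1.4.2 and the build mm9 were named for the series. Per the file headers, MACS called the peaks of each library against 1 input with a p cutoff of 1e-05 and 1 tag per position, and both Mll2 libraries shared an input. Tags per peak were deposited as a raw count, not normalized. MACS gave each peak a fold enrichment, deposited as a ratio to its estimated background. The deposited score is minus 10 times the log10 of the p-value, and the false discovery rate was deposited in percent.

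From these, tags per kb, widths, covered shares, merged regions and overlaps of at least 1 bp were computed with numpy 2.4.6, pandas 2.3.3 and scipy 1.17.1. Shares have exact Clopper-Pearson 95% intervals. Windows of equal length were laid back to back from the start of each chromosome to its last peak, leaving out those that touch a Hox window, and like windows were within 5 percentage points of H3K4me3 covered share. No test was run, since members and windows are not replicates. The computations were tested on simulated peaks. The sequences come from RefSeq tables of GRCm38.p6.

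The windows, genes and lists were chosen with earlier results of these data known. Per cluster, the text names the widest and strongest H3K4me3 regions, the strongest peak of each serum and of Menin, and the regions without a partner. Of the 29 Mll2 regions without an H3K4me3 region, 2 are given as examples, chosen after their values were seen, as were the widest Menin peak and the thresholds of 20-fold and 3000 bp. The alternatives were thresholds of score and fold, overlap and merging rules, single libraries, and leaving out each cluster.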

Additional observations from a re-analysis of the deposited data

How the results depend on the processing

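Of 134 alternative values for 15 results, 104 moved by less than the spread or interval set for them and 30 moved by more. A change of direction was defined only for the ratios of tags per kb, and none of those ratios changed direction. The share of Hox H3K4me3 regions with an Mll2 region was 86.1%, beside 80.8% of all, and it fell under the share of all with either threshold. The spread was the SD between the H3K4me3 libraries (2.26 percentage points of covered share, 20.2 bp of median width, 0.0769 for the ratio of tags per kb), the binomial interval for the other shares (9.61% to 14.8% around the Mll2 covered share of 12.0%, over 640 kb), or 1.5 times a count or ratio without replicates. For the Mll2 and Menin covered shares that interval treated each kb as independent, although a peak can span several, so it measures no sampling error. For H3K4me3 covered share and width, the SD came from the single-library values, which were also among the alternatives. Those comparisons are therefore no independent check. No paired analysis was possible because no comparison here was between groups with shared replicate numbers, and no test was run. At a fold of at least 10 the covered share fell to 5.33% for H3K4me3 and 4.86% for Mll2, and the share of Hox H3K4me3 regions with an Mll2 region to 55.0%, beside 72.6% of all. At a score of at least 100 the Mll2 covered share was 7.36% and the share of H3K4me3 regions with Mll2 69.2%, beside 80.2% of all. Serum 9172 alone covered 9.15%, and a peak of either serum 16.3%. The share of H3K4me3 regions with Mll2 was 97.2% with serum 9175 alone and 100% with either serum. The median width of Hox H3K4me3 regions, 1380.5 bp, was 1500.0 bp at a score of at least 100, 1516 bp at a fold of at least 10, 1488 bp with regions up to 500 bp apart merged, 1332 bp without HoxA, 1415 bp without HoxB and 1426 bp without HoxD, and it was 1024 to 1052 bp when a single library was kept and peaks were not joined.

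The count of like windows with at least the Menin share of the cluster was 1 for HoxA, 1 for HoxB, 3 for HoxC and 2 for HoxD. It was 0 for all 4 at a fold of at least 10, and 0 for HoxD at a score of at least 100. With like windows within 2 percentage points it was 0 for HoxA, HoxB and HoxD. With windows shifted by 1 part in 2 of their length it was 1 for HoxC and 4 for HoxD. Leaving out 1 H3K4me3 library gave 1 for HoxA, 2 for HoxB, 3 for HoxC, and 1 to 2 for HoxD. The cause of these moves was not tested. Covered shares of Menin, the presence of Menin on each Hox H3K4me3 region, and the ratios of tags per kb stayed within their limits under each alternative run. For the Menin ratio that limit was wide, a factor of 1.5. The ratio was 1.52, and it fell to 1.23 at a score of at least 100 and to 1.27 at a fold of at least 10. With fold in place of tags per kb it was 1.64. The Hox Mll2 peaks, with median folds of 8.95 and 8.97, lay mostly under the fold threshold of 10, and the part of depth in these values was not tested.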
